A study of Mus musculus with 3 samples.

Results

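The 10 genes described here encode the enzymes and regulators of polyamine synthesis, interconversion and salvage: Odc1, Amd1, Srm, Sms, Mtap, Oaz1, Oaz2, Azin1, Sat1 and Smox. They were taken from a list of pathway genes and read by Entrez gene identifier on the 3 arrays of the study, and all 10 had a probe set among the 23740 probe sets with a gene symbol. The arrays hold RNA of long-term haematopoietic stem cells. They were sorted out of the bone marrow of mice as Lin-, ckit+, Sca+, Flk2-, CD48- and CD150+. The cells were kept overnight in serum-free StemSpan medium and then given 0, 0.02 or 2.5 Gy of gamma radiation, and RNA was taken 2 hours later. The groups are called unirradiated (0 Gy), low dose (0.02 Gy) and high dose (2.5 Gy), with 1 array each. The strain and age of the mice, and whether animals were pooled, are not given in the labels. With 1 array per dose no difference has a replicate check and no test was run, so every comparison describes single arrays. The list was chosen by pathway, after Sms had stood out by its measured difference between the low-dose and unirradiated arrays, so the values below are given as a description.

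Polyamines (putrescine, spermidine and spermine) are small positively charged molecules that bind nucleic acids and are needed for translation and growth. Ornithine decarboxylase makes putrescine, and spermidine synthase and spermine synthase then add aminopropyl groups taken from decarboxylated S-adenosylmethionine, each step releasing methylthioadenosine, which is salvaged back towards methionine and adenine. Antizymes bind ornithine decarboxylase and send it to the proteasome, antizyme inhibitors take antizyme away, and acetylation and oxidation run the chain backwards. Much of this control acts on translation and protein stability, which an array of RNA does not read. Adult long-term stem cells are mostly quiescent, and the pathway is known above all from growing cells.

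Sms and Mtap were the members that passed 2-fold, so the 250 bases before their annotated starts are printed here, from RefSeq on GRCm38.p6 and 5′ to 3′ along the gene. Sms has a pair of annotated starts, of which the outer lies further upstream. Capitals mark matches to the E-box CACGTG, which Myc with Max and other factors can bind, the GC box GGGCGG and the CCAAT box CCAAT, searched on both strands so that CCGCCC and ATTGG also count. The TATA box TATAAA was searched too. The windows are chrX:157492288-157492537 on the minus strand (Sms outer), chrX:157491369-157491618 on the minus strand (Sms inner) and chr4:89137120-89137369 on the plus strand (Mtap).
Sms outer start: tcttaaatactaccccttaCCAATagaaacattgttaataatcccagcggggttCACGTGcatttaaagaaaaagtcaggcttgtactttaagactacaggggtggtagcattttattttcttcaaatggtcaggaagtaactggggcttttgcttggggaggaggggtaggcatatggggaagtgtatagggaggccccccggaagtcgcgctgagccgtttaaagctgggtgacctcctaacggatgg
Sms inner start: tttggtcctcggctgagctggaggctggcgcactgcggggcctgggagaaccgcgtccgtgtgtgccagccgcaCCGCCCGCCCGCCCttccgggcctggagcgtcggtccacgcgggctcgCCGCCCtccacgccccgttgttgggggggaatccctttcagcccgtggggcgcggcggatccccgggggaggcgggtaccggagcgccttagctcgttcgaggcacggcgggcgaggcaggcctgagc
Mtap start: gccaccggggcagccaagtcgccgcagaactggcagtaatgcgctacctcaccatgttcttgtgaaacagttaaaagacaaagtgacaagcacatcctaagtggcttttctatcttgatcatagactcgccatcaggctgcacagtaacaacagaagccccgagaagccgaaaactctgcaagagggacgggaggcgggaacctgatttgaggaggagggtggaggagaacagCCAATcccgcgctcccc

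The outer Sms window held 1 E-box, which begins 196 bases before the start, and 1 CCAAT box at 231 bases. The inner Sms window held 4 GC boxes, 3 of them overlapping. The Mtap window held 1 CCAAT box, 17 bases before the start, and none of the other motifs. RefSeq windows were matched for 8 of the 10 members, 9 windows in all; Srm and Azin1 had none in the table used. The E-box occurred in 1 of these 9 windows and in 6.02% of the 32851 windows of this length over all genes. GC boxes, which occurred in 32.7% of all windows, were in those of Odc1, Amd1, Oaz2, Sat1 and Smox and in the inner Sms window. CCAAT boxes, also found in the Oaz1 window, occurred in 33.8% of all windows and TATAAA in 12.4%, the last in none of the 9. A match describes letters and shows no binding. The map of these matches sets the windows side by side.

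**Figure D1:**
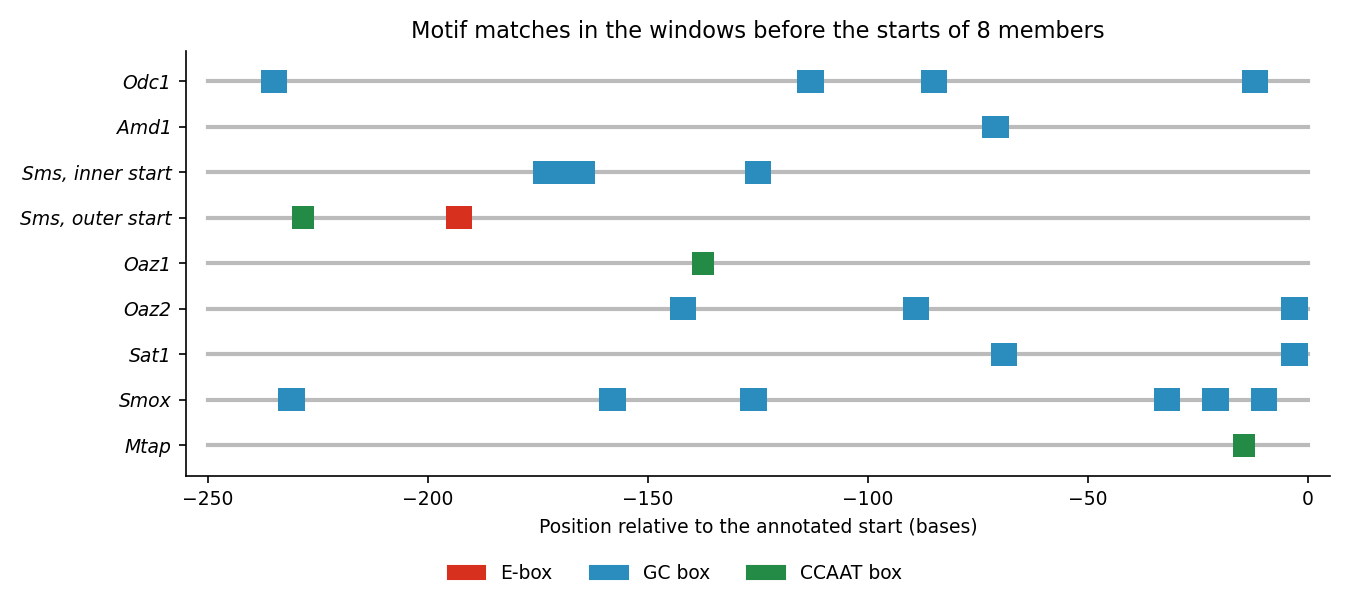
Matches to the E-box, GC box and CCAAT box in the 250 bases before each annotated start, with 1 line per window and the distance from the start in bases. The 1 E-box lies in the outer Sms window at 196 bases, and the Smox window holds 6 GC boxes.

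The values are log2 values as deposited, and a difference is the value on the array of the higher dose minus that on the other, so that 1 is a 2-fold difference and a positive difference means higher at the higher dose. A gene entered the counts if its mean over the 3 arrays was at least 4.56, the median of all named genes. Of the members, 8 passed this level minimum. Srm and Azin1 did not, and Smox (mean 4.559) passed at the edge of it (4.558). Whether a probe set was above background is not known here, and levels of different probe sets are not compared.

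Sorting genes and markers of other blood cells were read on each array. Kit was at 8.58, 8.78 and 8.50 (unirradiated, low dose, high dose), Slamf1, which encodes CD150, was at 5.24, 4.75 and 4.84, and Cd48 was under the level minimum on each array (3.31 to 3.62). Flt3, which encodes Flk2 and was selected against too, was over it on each array, at 4.60, 4.95 and 4.93, and so higher on both irradiated arrays. None of the 3 T cell markers and 1 of 4 B cell markers (Pax5) passed the level minimum. Of the 6 mature myeloid markers read, the 5 past the level minimum were above the unirradiated array at both doses, and Ly6g was below it. S100a8 was at 5.57, 6.87 and 6.81 and S100a9 at 6.82, 7.94 and 8.38, each at least 2-fold higher at either dose. Mpo, Elane and Itgam were above the unirradiated array by 0.01 to 0.94, and Ly6g, the marker of the 6 that was under the level minimum by its mean, was lower at 5.06, 4.33 and 4.21. Summed on the linear scale, the myeloid list was at 8.18, 9.03 and 9.20 (log2, in order of dose), a sum to which S100a8 and S100a9 add most, and no marker was at 0. The summed erythroid list was at 6.48, 6.41 and 6.44 and the megakaryocyte list at 9.49, 9.73 and 9.89. The summed sort and stem cell list was at 9.69, 10.08 and 9.94, highest at the low dose as Sms was. The summed myeloid, megakaryocyte and sort and stem cell levels thus lay higher on the same arrays as Sms and Mtap, though not that of each marker. Whether the mix of cells on each array had a part in those results was not tested. In RNA from sorted cells, fewer cells of a type and less RNA per cell cannot be told apart.

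At the low dose, Sms and Mtap were at least 2-fold higher than on the unirradiated array, 2 of the 8 members past the level minimum, against 2.44% of the 11870 genes past it (1.31% higher and 1.13% lower). The same 2 members were at least 2-fold higher at the high dose, where 1.69% of genes passed 2-fold (1.15% higher and 0.548% lower). Between the doses, 1 of the 8 passed 2-fold, Sms, which was lower at the high dose; 2.49% of genes passed there (1.45% higher and 1.04% lower). Nothing is read from these shares, since the list was chosen by the value of Sms. Both dose comparisons use the same unirradiated array, so a low reading on that array and a higher level after either dose cannot be told apart. The comparison between the doses does not use that array, but it uses the low-dose array, whose Sms value helped lead to the list. There, a high reading on the low-dose array and a lower level at the high dose cannot be told apart.

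Sms encodes spermine synthase, which turns spermidine into spermine. It was at 3.16 on the unirradiated array, 6.47 on the low-dose array and 4.98 on the high-dose array, so the 3 arrays lay far apart and the low dose was highest. The unirradiated value was under the level minimum and the others over it. The difference from the unirradiated array was 3.31, a 9.95-fold difference at the low dose, which ranked 1st from the top among the 11870 genes. At the high dose it was 1.82, or 3.53-fold, and ranked 19th. High dose minus low dose was −1.49, 2.82-fold lower, which ranked 27th from the bottom. The order of the doses was thus not the order of the Sms values. On chromosome X, the nearest protein-coding genes with a named probe set on either side of Sms were Phex and Mbtps2, chosen after their values were seen. Their differences lay between −0.37 and 0.19 over the 3 comparisons, and both genes were under the level minimum.

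**Figure D2:**
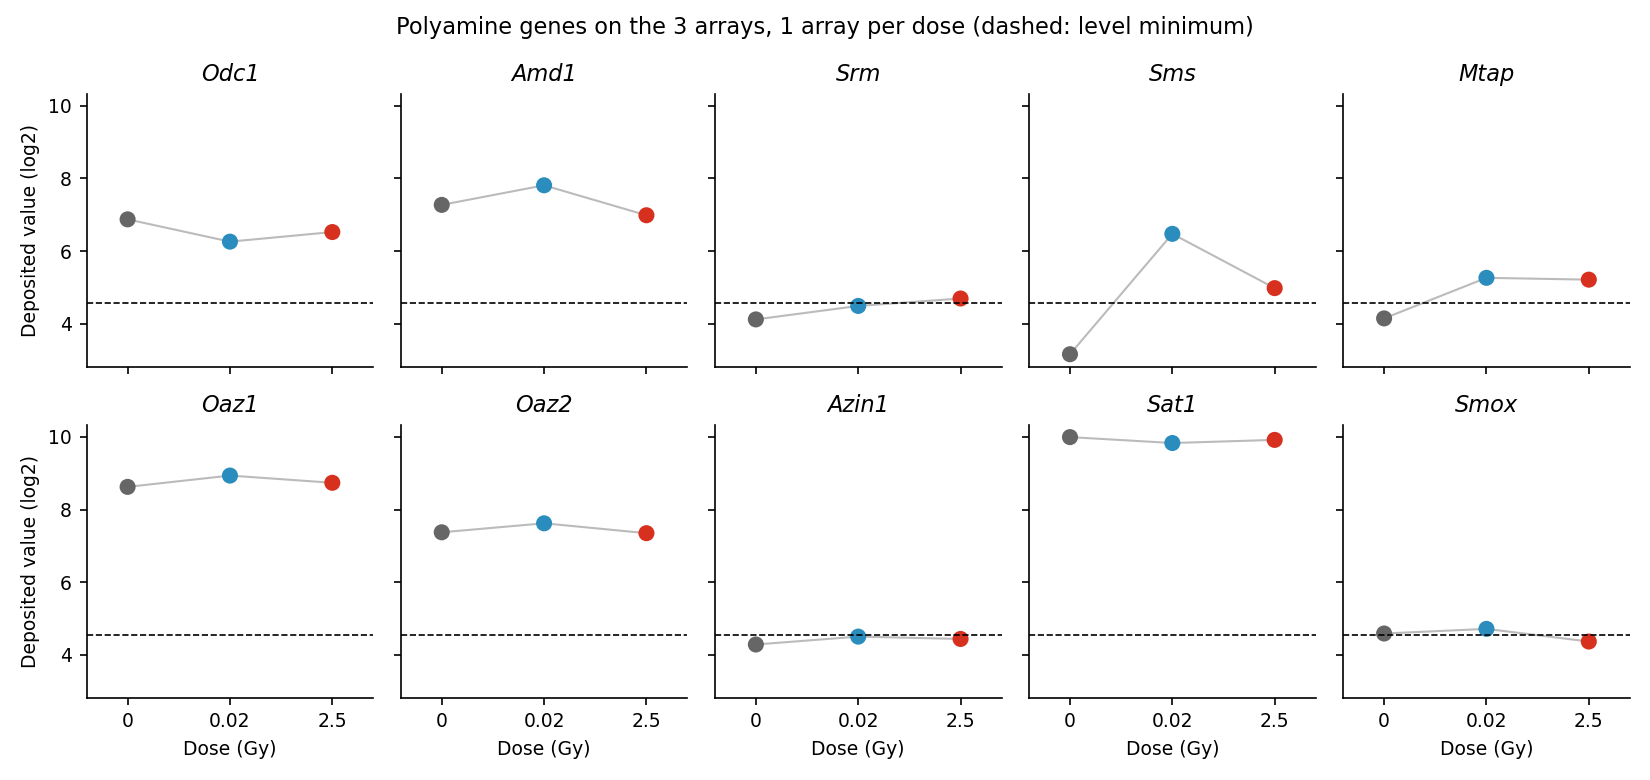
The deposited log2 value of each of the 10 members (vertical axis) at 0, 0.02 and 2.5 Gy (horizontal axis, not to scale), with 1 point per array and the level minimum of 4.56 dashed. Sms spans 3.16 to 6.47 and Mtap 4.15 to 5.26, while the points of Sat1 lie between 9.83 and 9.996; levels of different genes are not comparable.

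Mtap encodes methylthioadenosine phosphorylase, which splits the methylthioadenosine left over from spermidine and spermine synthesis. It was at 4.15 on the unirradiated array, 5.26 on the low-dose array and 5.21 on the high-dose array. The irradiated arrays lay close together and the unirradiated array apart, under the level minimum. The low-dose difference was 1.12 (2.17-fold, ranked 100th from the top) and the high-dose difference 1.07 (2.09-fold, ranked 117th), just past 2-fold in each case, and −0.05 between the doses. Mtap thus shared with Sms a low value on the unirradiated array while its irradiated values lay within 0.05 of each other. On chromosome 4, the nearest such genes on either side were Ifne and Cdkn2a, chosen after their values were seen. Cdkn2a was at −0.39 and −0.07 (low and high dose minus unirradiated) and Ifne at 0.02 and 0.80, both under the level minimum by their means. Ifne was under it on each array, while Cdkn2a was over it on the unirradiated (4.70) and high-dose (4.64) arrays.

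The decarboxylases that feed the synthases did not pass 2-fold. Odc1, ornithine decarboxylase and the entry point of the pathway, was at 6.87, 6.26 and 6.52 in order of dose, highest on the unirradiated array. Against the unirradiated array the low-dose difference was −0.61 and the high-dose difference −0.35, with 0.26 between the doses. Amd1, S-adenosylmethionine decarboxylase, which supplies the aminopropyl donor, was at 7.27, 7.81 and 6.99. The low dose was highest and the high dose lowest, with differences of 0.54 and −0.29 from the unirradiated array and −0.82, or 1.77-fold lower, for high dose minus low dose. That was the member with the second largest distance between the doses, after Sms. Amd2, a near-identical copy of Amd1 with a probe set of its own, was at 5.37, 4.84 and 4.60, lower on both irradiated arrays. How far the probe sets of these copies can be told apart is not known here, so both readings are uncertain.

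Srm encodes spermidine synthase, the step before Sms. It was at 4.12, 4.49 and 4.69, lowest on the unirradiated array and highest at the high dose, and passed the level minimum on the high-dose array alone. Its differences were 0.37 and 0.58 from the unirradiated array and 0.20 between the doses. Srm and Sms were both higher on each irradiated array than on the unirradiated array, but their order between the doses differed. With its mean of 4.43 under the level minimum, Srm entered no count.

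Among the regulators of ornithine decarboxylase, the differences were small. Oaz1, an antizyme whose full-length protein is made by a ribosomal frameshift that polyamines promote, was at 8.63, 8.94 and 8.74, highest at the low dose. Its difference was 0.31 at the low dose. At the high dose it was 0.11, and the sign turned after quantile normalization (−0.12) and loess (−0.08). Oaz1-ps, an annotated pseudogene of Oaz1 with a probe set of its own, was at 6.20, 6.19 and 7.20. Its differences of 1.002 at the high dose and 1.02 for high dose minus low dose both passed 2-fold. Oaz1-ps was named after its value was seen. How far the Oaz1 and Oaz1-ps probe sets can be told apart is not known here.

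Oaz2, another antizyme, was at 7.38, 7.62 and 7.35, with a low-dose difference of 0.25 and a high-dose difference of −0.02. The last turned to 0.02 after median centring. Azin1, an antizyme inhibitor related in sequence to ornithine decarboxylase, was at 4.29, 4.50 and 4.44, under the level minimum on each array. Oaz1, Oaz2 and Azin1 each had their highest value at the low dose, as did Amd1, Sms, Mtap and Smox. That is 7 of the 10 members, beside 33.4% of all 23740 named genes and 37.4% of those past the level minimum. Nothing is read from this count, since the low-dose difference of Sms led to the list. High dose minus low dose was only −0.05 for Mtap and −0.06 for Azin1. The unirradiated array was highest for 2 members (Odc1 and Sat1) and the high dose for 1 (Srm). The low dose was lowest for the same pair, Odc1 and Sat1.

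Sat1 and Smox act in polyamine breakdown, and neither passed 2-fold in any comparison. Sat1, spermidine/spermine acetyltransferase, which marks polyamines for export or oxidation, was at 9.996, 9.83 and 9.92, with differences of −0.16 and −0.08 from the unirradiated array and 0.09 between the doses. The 3 arrays lay within 0.16 of each other, the smallest range of any of the 10. Smox, spermine oxidase, which turns spermine back into spermidine and releases hydrogen peroxide, was at 4.59, 4.72 and 4.37. The low dose was highest, and the high dose was lowest and under the level minimum. Its differences were 0.13 and −0.22 from the unirradiated array and −0.35 between the doses.

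**Figure D3:**
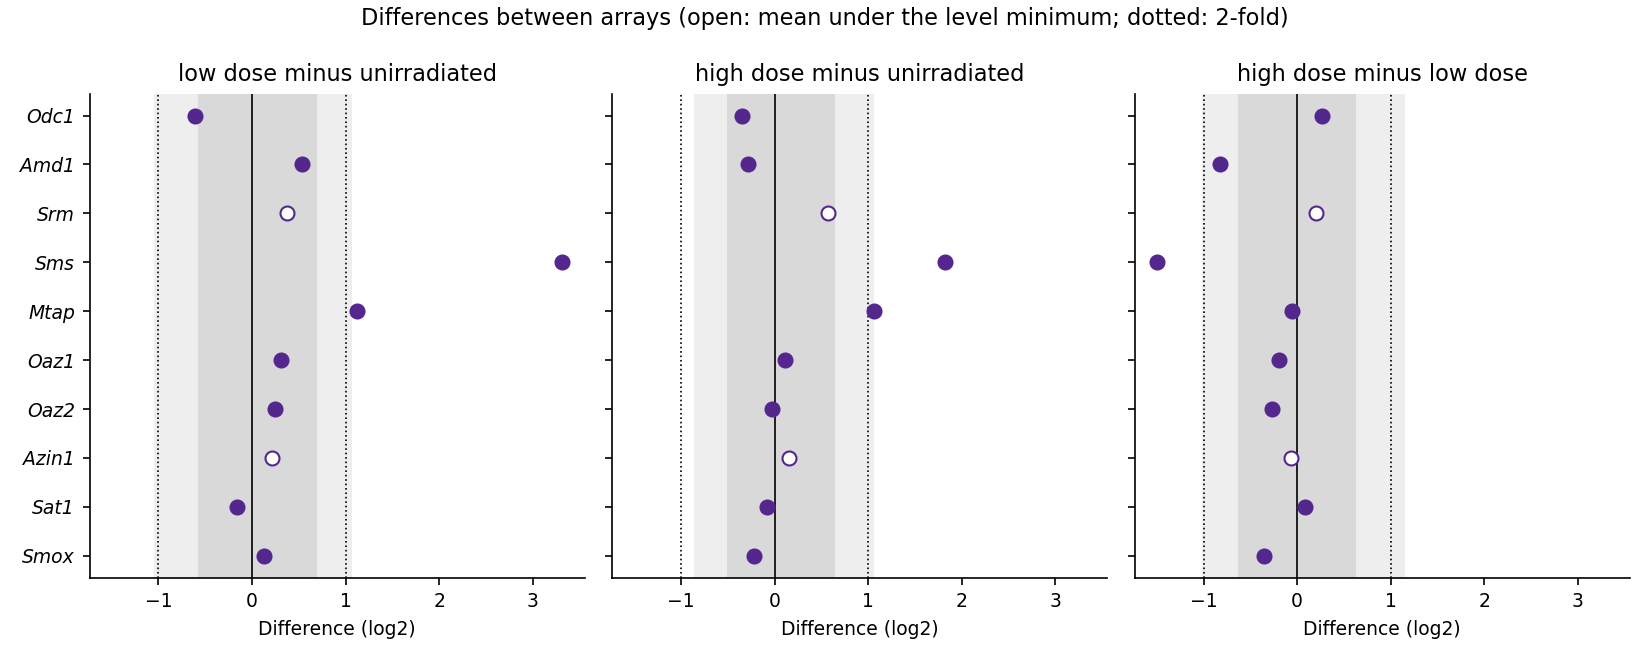
The log2 difference of each member (horizontal axis) in the 3 comparisons, with filled points for the 8 members past the level minimum and open points for Srm and Azin1. The dark and light bands hold the 5th to 95th and the 1st to 99th percentiles of the 11870 genes past the level minimum, and dotted lines mark 2-fold. Sms lies outside the light band in all 3 panels and Mtap in both comparisons with the unirradiated array.

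Over the 8 members past the level minimum, the median difference was 0.28 at the low dose, where the median of all genes was 0.04. Of the 8, 6 were above 0, against 54.3% of all genes. Sms, whose low-dose difference led to this list, and Mtap are among the 6. Both were under the level minimum on the unirradiated array and passed it through the irradiated arrays, so nothing is read from this count. At the high dose the median was −0.05 beside 0.03 for all genes, with 3 of 8 above 0, against 53.5% of all genes. Between the doses it was −0.24 beside −0.00, with 6 of 8 below 0 and 2 above it, where 49.5% of all genes lay above 0. Each of these counts shares an array with the low-dose difference of Sms, so nothing is read from them either. With all 10 members and no level minimum, the medians were 0.28, 0.04 and −0.13. After quantile normalization and loess the low-dose median of the 8 was 0.11 and 0.13. The members did not differ in a common direction: in each comparison with the unirradiated array the differences ran from −0.61 to 3.31 (low dose) and from −0.35 to 1.82 (high dose).

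A list of 35 further genes around the pathway was read on the same arrays; 23 passed the level minimum. None of the 23 passed 2-fold at the low dose, and 1 did at the high dose and in high dose minus low dose, Myc, beside 2.44%, 1.69% and 2.49% of all genes. Myc, a transcription factor known to activate Odc1 transcription, was at 6.06, 6.62 and 7.67, higher with each dose. Its low-dose difference was 0.56 and its high-dose difference 1.61, while those of Odc1 were below 0 in both. The median difference of the 23 was 0.06 for the low dose, −0.08 for the high dose and 0.04 between the doses.

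Of the arginine and ornithine supply genes, Slc7a1, a cationic amino acid transporter, had the largest differences (0.55 for the low and 0.75 for the high dose). Arg1, arginase, was at −0.41 and −0.16 and under the level minimum. In S-adenosylmethionine supply, Ahcy, which removes S-adenosylhomocysteine, was at 0.85 and 0.38, under the level minimum. Mat2b, a regulatory subunit of methionine adenosyltransferase, was at 0.25 and −0.23 and at −0.49 between the doses. No gene of either group passed 2-fold.

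The 5 genes that act after Mtap in methionine salvage all passed the level minimum. At the high dose all 5 lay below 0, from −0.35 to −0.03, where 53.5% of genes past the level minimum lay above 0. Mri1, the isomerase of the next step, was at 0.14 and −0.35 (low and high dose minus unirradiated). Got1, an aminotransferase that can carry out the last step, was at −0.47 and −0.29. Its values were 4.83, 4.36 and 4.53 in order of dose, so only the unirradiated value was over the level minimum. At the low dose 3 of the 5 lay above 0, beside 54.3% of genes. Since Got1 entered through its unirradiated value, nothing is read from the counts at either dose. None of the 5 passed 2-fold in any comparison.

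Among relatives of the members, Azin2, another antizyme inhibitor, was at 0.24 and 0.60, under the level minimum, beside −0.54 and −0.77 for Amd2. In catabolism, Paox, which oxidises acetylated polyamines, was at 0.36 and −0.25 and at −0.61 between the doses. Sat2, an acetyltransferase gene related to Sat1, was at −0.46 and 0.14, under the level minimum. Spermidine is also the donor for hypusine, a modified lysine of the translation factor eIF5A. Dhps, the enzyme that starts this step, was at 0.46 and 0.41, and Eif5a2, which encodes a second eIF5A, at −0.05 and 0.17. Of the transport genes, Atp13a4 was at −0.52 and −0.78 and Slc22a2, an organic cation transporter, at −0.41 and 0.08, both under the level minimum.

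**Figure D4:**
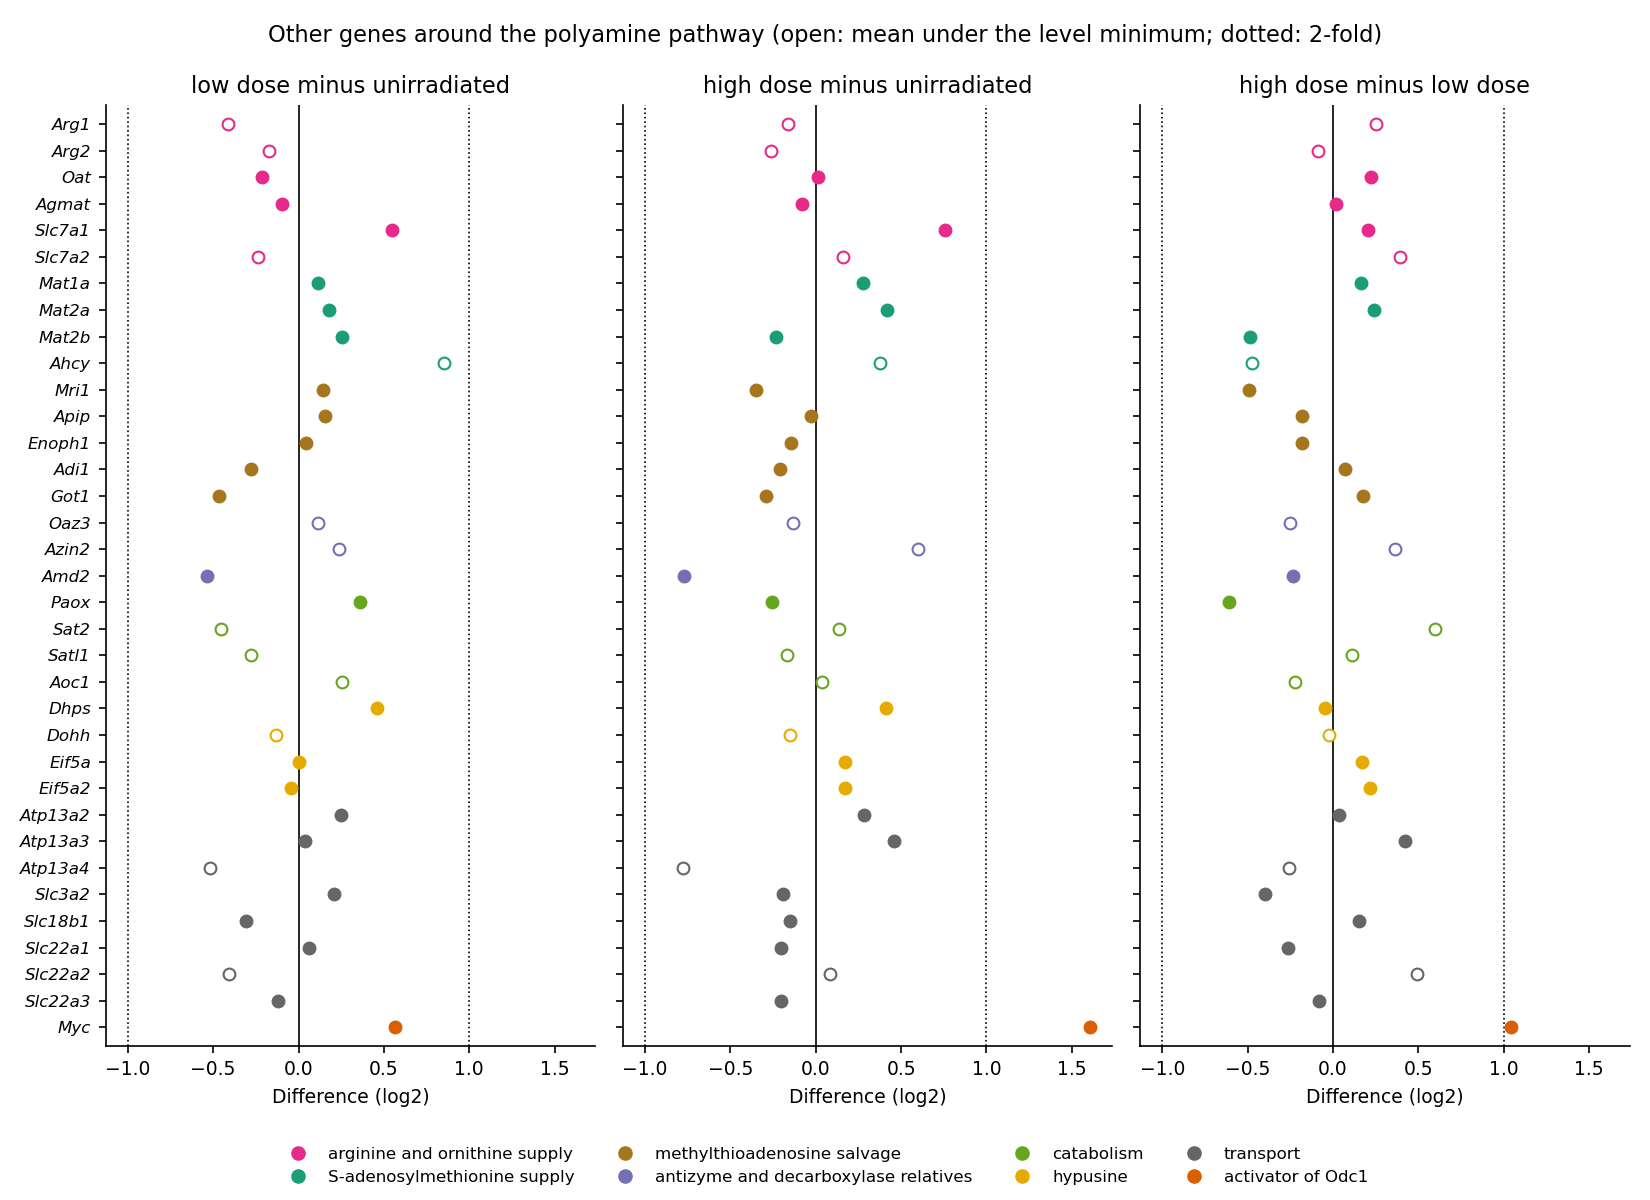
The log2 difference of 35 further genes around the polyamine pathway (horizontal axis) in the 3 comparisons, coloured by group, with open points for the 12 genes under the level minimum and dotted lines at 2-fold. Myc at the high dose (1.61) and between the doses (1.04) is past the dotted lines, and no other gene of this list is.

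Among 9503 protein-coding genes past the level minimum and outside families of near-identical copies, the pair of dose differences of Sms had no close neighbour, which follows from its place at the top of the low-dose differences and adds nothing to it. The nearest by Euclidean distance over both differences from the unirradiated array, on 3 arrays, were Hspa8, a constitutive chaperone gene (distance 1.65), Nfu1, an iron-sulphur cluster gene (1.83), and Cables2 (1.90). Hspa8 was at 6.47, 8.14 and 8.16 in order of dose and Nfu1 at 5.02, 6.73 and 5.95. Nfu1 had, as Sms did, its highest value at the low dose and its lowest on the unirradiated array. The pair of differences of Odc1 had close neighbours by the same measure. The nearest genes were Foxo4 (0.0050), Wfdc10 (0.011) and Slc9a5 (0.014), and 53 of the 9503 genes lay within 0.1 of that pair. The low-dose difference of Odc1 (−0.61) ranked 497th from the bottom of the genes past the level minimum. It lay under their 5th percentile (−0.57).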

How the data were processed

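Gene expression was measured on 3 arrays, 1 per dose, from biotin-labelled cDNA made by the Affymetrix whole-transcript protocol, per the labels' protocols. The values are the authors' deposited log2 values for 25206 probe sets; the scale was read from the values (1.55 to 12.4). Partek is named without a role, per the submitters' processing notes; how background was corrected and arrays were normalized is not given in the sources used here. Array medians were 4.60, 4.54 and 4.55 in order of dose, and depth does not apply; the number of arrays limits the precision.

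Probe set identifiers hold Entrez gene identifiers: 23185 were named by the platform table, which gave the same identifier in each case, and 555 others, Amd1 among them, through RefSeq gene identifiers. The 1466 unnamed were left out. Differences were taken on the log2 scale and counted at 2-fold (Python 3.11.15, pandas 2.3.3). With 1 array per dose there is no replicate spread and no test. Alternatives were quantile normalization, median centring, loess (span 0.3, statsmodels 0.14.6), other level minimums, 1.5-fold and 3-fold, and means. The counting and scaling steps were tested on simulated data.

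The members and lists were chosen with earlier results of these data known. Named were the 10 members, in each further group the 2 genes with the largest difference, any gene past 2-fold, and the 3 genes nearest in pattern to Sms and Odc1 among those named in the platform table; predicted genes, zinc finger and other multigene families were left out of that search.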

Additional observations from a re-analysis of the deposited data

How the results depend on the processing

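No paired analysis was possible because a single array stands for each dose. All 90 differences of single members under quantile normalization, median centring and loess kept their side of 2-fold, and 3 changed sign, none over 0.11 in the deposited values (Oaz1 and Oaz2 at the high dose); the largest shift was 0.28. Sms stayed between 3.30 and 3.38 at the low dose.

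Counts of members past 2-fold depended on the level minimum by construction. They were 0 in each comparison at a minimum of the 75th percentile, which left 5 members and neither Sms nor Mtap. They were 0 in both dose comparisons with the minimum required on both arrays, since the unirradiated values of Sms and Mtap were under it. At 3-fold the counts were 1, 1 and 0 (low and high dose against unirradiated, then high against low dose). At 1.5-fold they were 3, 2 and 2, and the member added at the low dose was Odc1, which was 1.53-fold lower. The median of the members was 0.11 after quantile normalization and 0.13 after loess at the low dose, and −0.19 and −0.18 at the high dose. Means in place of medians were 0.61, 0.26 and −0.35, and without a level minimum the median between the doses was −0.13; the cause of the shifts under the scalings was not tested.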
